A study of Mus musculus with 16 samples.

Results

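The 35 genes described here are interferon-stimulated genes: genes whose transcription rises when a cell senses interferon, the secreted signal of antiviral defence. They were followed in whole trigeminal ganglia, the paired ganglia that hold the sensory neurons of the face, of mice with and without Nogo-A. The members were chosen by name as such genes, with earlier results of these data known, so their shares below describe the list and test nothing. All 35 were found among the 25719 gene identifiers of the series. Nogo-A is a membrane protein best known as an inhibitor of axon growth, and is one of the proteins made from the gene Rtn4.

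RNA was taken from 16 single ganglia, 1 per library, in 4 groups of 4: wild-type (WT) and Nogo-A knockout (KO) mice on embryonic day 14 (E14), and both genotypes again on postnatal day 25 (P25). The labels give genotype and stage and no strain, allele, sex or treatment, and a library is identified here by its stage, genotype and replicate number. The libraries were made from polyadenylated RNA with a strand-specific kit, and held 15532373 to 29562379 estimated counts. Levels are given as CPM, counts scaled to a common library total, and series of 4 values follow replicates 1 to 4. Fold changes and adjusted p-values come from edgeR's quasi-likelihood test with Benjamini-Hochberg adjustment over 15109 tested genes, and a gene with an adjusted p under 0.05 is said to be called. All 35 members passed the low-count filter of that test. Only 20 of them would have passed it on the E14 libraries alone, against all 35 on the P25 libraries alone, so most of the others entered the test through their P25 level.

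Facts of the whole series that touch these genes are few. Rtn4 ranged from 144 to 521 CPM in E14 WT, 236 to 405 CPM in E14 KO, 406 to 542 CPM in P25 WT and 345 to 384 CPM in P25 KO, and was called in no comparison. The gene total adds every Rtn4 transcript, so it does not check the loss of Nogo-A. Markers of sensory neurons summed to 15999 to 24241 CPM over all 16 libraries, so the defining markers of the labelled tissue were present. E14 WT replicate 2 stood apart: its Pearson correlation with the mean of the other E14 libraries was 0.954, against 0.987 to 0.995 for the other 7, and the 3772 tested genes of lowest GC content lay there a median of 0.85 log2 units below the stage mean. That library was the lowest of its stage, or tied for it at 0, for 16 of the 35 members, with no count for 8 of them. Names of 2 pairs of E14 libraries, WT replicates 2 and 4 and KO replicates 1 and 3, share a number and differ in the letter R or L, so each pair may be ganglia of a single animal.

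Interferons bind receptors whose kinases, Jak1 and Tyk2, phosphorylate transcription factors, Stat2 among them. A complex that holds Stat2 and Irf9 binds the interferon-stimulated response element (ISRE) in the promoters of target genes, and a further element of such promoters is the gamma-activated sequence (GAS). Among the targets are Stat2 and Irf9 themselves, sensors of viral RNA, enzymes that block translation or degrade RNA, and brakes such as Usp18. Healthy tissues hold a low tonic level of this programme, set in part by interferon beta.

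Promoter windows of 300 bases, from 250 before to 50 after the annotated start, were available from RefSeq (GRCm38.p6) for 27 of the 35 members. The ISRE core was searched as GAAANNGAAA and GAS as TTCNNNGAA, on both strands, with overlapping matches counted. The ISRE core was found in 13 of the 27 members (48.1%), against 1079 of 27025 genes with a window (3.99%). The GAS letters were found in 7 of the 27 (25.9%), against 9.55% of all genes. Shown here are the 160 bases upstream of the start for the 5 members with a window that stood highest in a single P25 library described below and for Cmpk2, which neighbours Rsad2 in the genome and holds no ISRE core in its window. Capitals mark each match, written on the strand of the gene, so a core on the opposite strand appears as its reverse complement.
Isg15: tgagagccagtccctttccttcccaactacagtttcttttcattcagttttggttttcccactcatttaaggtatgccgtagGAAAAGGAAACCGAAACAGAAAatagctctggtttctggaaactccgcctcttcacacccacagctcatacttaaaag
Ifit1: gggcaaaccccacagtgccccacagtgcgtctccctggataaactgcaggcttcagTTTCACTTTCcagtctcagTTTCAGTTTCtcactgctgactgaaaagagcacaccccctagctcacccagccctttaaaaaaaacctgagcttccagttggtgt
Ifit3: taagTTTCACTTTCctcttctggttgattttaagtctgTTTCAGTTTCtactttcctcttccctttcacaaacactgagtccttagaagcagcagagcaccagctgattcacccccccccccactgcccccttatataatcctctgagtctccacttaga
Gbp2: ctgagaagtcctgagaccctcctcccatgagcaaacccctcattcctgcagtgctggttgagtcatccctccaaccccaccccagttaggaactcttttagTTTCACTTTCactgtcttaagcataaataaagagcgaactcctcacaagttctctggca
Rsad2: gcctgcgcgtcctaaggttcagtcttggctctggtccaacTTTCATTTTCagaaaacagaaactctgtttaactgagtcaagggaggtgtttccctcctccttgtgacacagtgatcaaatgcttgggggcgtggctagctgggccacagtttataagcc
Cmpk2: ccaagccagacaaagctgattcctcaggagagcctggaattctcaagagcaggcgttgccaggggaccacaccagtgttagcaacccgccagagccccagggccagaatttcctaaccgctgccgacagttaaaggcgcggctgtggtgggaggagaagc
These windows lie at chr4:156200819-156200978 for Isg15, chr19:34640729-34640888 for Ifit1, chr19:34583369-34583528 for Ifit3, chr3:142620503-142620662 for Gbp2, chr12:26456453-26456612 for Rsad2 and chr12:26469055-26469214 for Cmpk2. Isg15 holds 3 overlapping cores, starting 78, 72 and 66 bases before its transcription start. Ifit1 holds cores at 104 and 85 bases, Ifit3 at 156 and 122 bases, Gbp2 at 59 bases and Rsad2 at 120 bases before the start. Allowing 1 mismatch in the letters, 24 of 27 members (88.9%) and 38.9% of all genes held a match. A match is a run of letters and not a measured binding site.

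The members were low before birth and higher at P25 in both genotypes. The mean over the 35 genes of log2(CPM + 0.5) was 0.89, 0.49, 0.53 and 0.78 in the 4 E14 WT libraries and 0.80, 0.93, 0.90 and 0.67 in the 4 E14 KO libraries. At P25 it was 2.49, 3.87, 2.33 and 2.67 in WT and 2.50, 2.64, 2.61 and 2.61 in KO. The stages did not overlap. WT replicate 2 was the highest P25 library and the other 7 lay within 2.33 to 2.67.

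**Figure D1:**
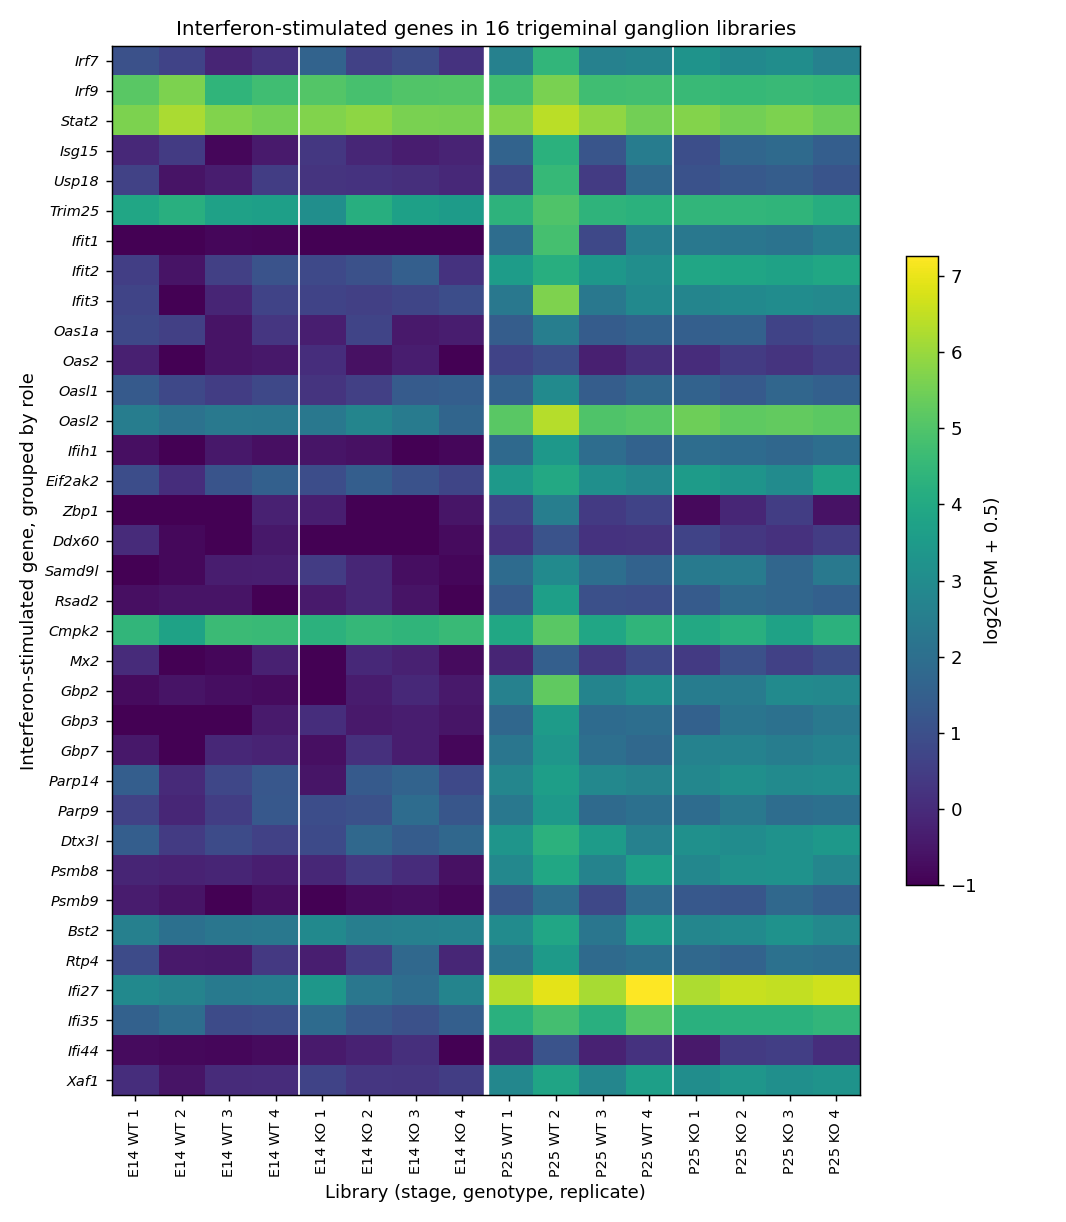
Level of each of the 35 interferon-stimulated genes (rows, grouped by role) in each of the 16 libraries (columns), as log2(CPM + 0.5) on a colour scale from dark (low) to yellow (high). The right-hand 8 columns (P25) are lighter than the left-hand 8 (E14) for most rows, P25 WT replicate 2 is the lightest P25 column in 33 of 35 rows, and Irf9, Stat2 and Cmpk2 are about as light at E14 as at P25.

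Between E14 and P25 in WT, 32 of the 35 members were called higher and 0 lower, where 29.7% of all tested genes were called higher. The median log2 fold change of the members was 3.35, beside 0.00033 over all tested genes. In KO 26 members were called higher and 0 lower, where 30.6% of all tested genes were called higher, and the median was 2.40, beside 0.011 over all tested genes. All 4 P25 libraries lay above all 4 E14 libraries for 29 members in WT (26.1% of all tested genes) and for 23 in KO (30.5%). On the E14 libraries alone only 20 of the 35 would have passed the low-count filter. Most of the others were tested because of their P25 level, which favours a rise, and these counts and medians include them. When P25 WT replicate 2 was left out, 29 members were called in WT, where 8408 of 15258 tested genes were called in either direction. The members' median fell to 2.71, and Trim25, Oas2 and Mx2 lost the call, with adjusted p of 0.056, 0.051 and 0.059. In bulk tissue a higher level can come from more cells that express a gene or from more RNA per cell, and these cannot be told apart. Each p-value reflects only how much single ganglia varied.

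**Figure D2:**
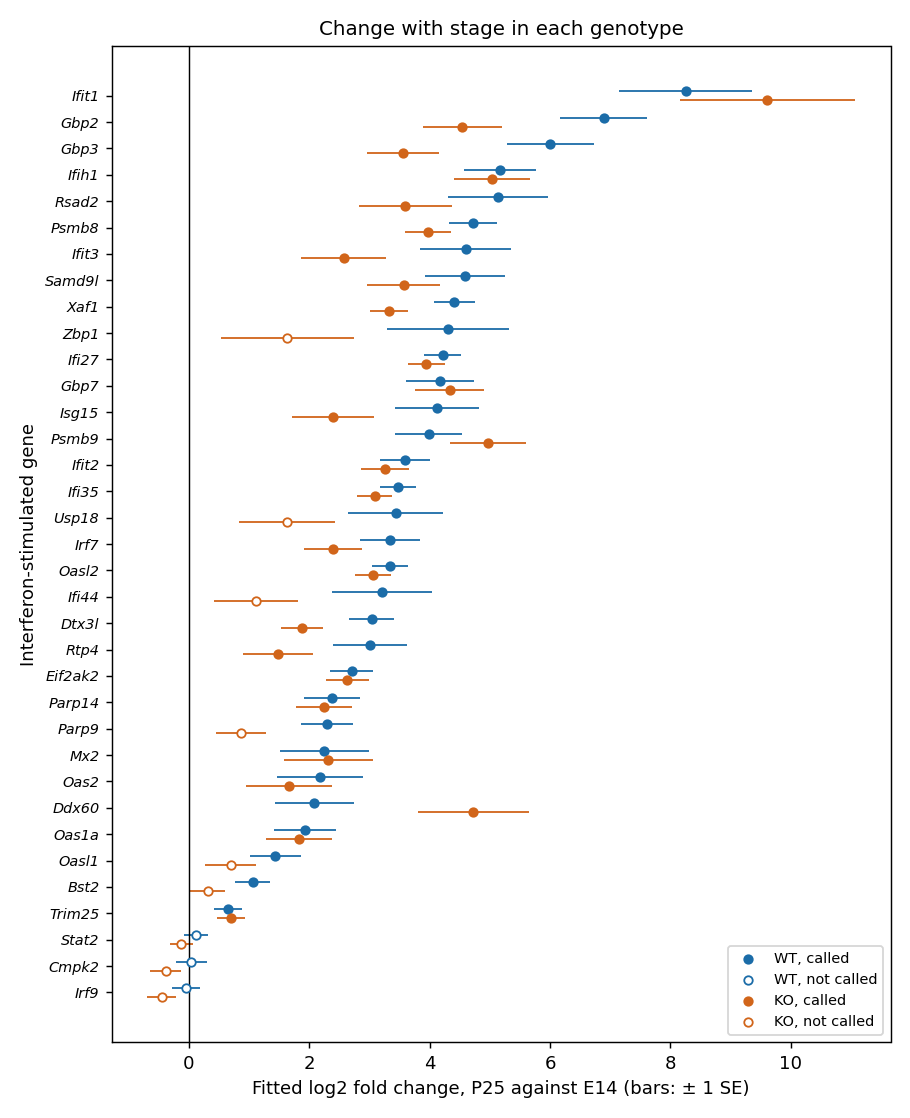
Fitted log2 fold change from E14 to P25 of each member (rows, ordered by the WT value) in WT (blue) and KO (orange), with bars of 1 SE and filled points where the gene was called. Only Irf9, Stat2 and Cmpk2 lie near 0 in WT, and 9 members have open points in KO. The fitted values of Ifit1 and of Ddx60 in KO rest on 0 to 2 E14 counts and are not folds to read. Those of Gbp3 and Zbp1 in WT rest on 6 and 8 E14 counts, all from replicate 4, and other members with few E14 counts are also uncertain.

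Among the signalling factors, Irf7 rose with age and Irf9 and Stat2 were called in neither genotype. Irf7, the factor that amplifies interferon production, was at 1.56, 1.1, 0.398 and 0.657 CPM in the E14 WT libraries and 2.59, 1.03, 1.4 and 0.666 CPM in E14 KO. It reached 5.67, 20.9, 5.63 and 6.06 CPM in P25 WT and 8.93, 7.02, 7.85 and 5.63 CPM in P25 KO. P25 WT replicate 2 was the highest of all 16 and the stages did not overlap in either genotype. The rise gave a log2 fold change of 3.35 with SE 0.50 and adjusted p = 9.20e-06 in WT and a log2 fold change of 2.40 with SE 0.48 and adjusted p = 2.39e-04 in KO. The WT value without P25 WT replicate 2 was 2.69 (adjusted p = 2.45e-05). Irf9, the DNA-binding part of the complex that holds Stat2, was at 34.7, 49.2, 20.8 and 25.8 CPM in E14 WT against 32.7, 28.5, 32.2 and 32.5 CPM in E14 KO. At P25 Irf9 was at 26.6, 47.5, 25.9 and 26.5 CPM in WT and 23.7, 22.7, 23.8 and 21.9 CPM in KO. Its stages overlapped in WT, and in KO every P25 library lay below every E14 library, as for 29.3% of all tested genes, with no call (log2 fold change of -0.45 with SE 0.24 and adjusted p = 0.105). Stat2, its partner, was at 49.1, 74.3, 51.8 and 45.8 CPM in E14 WT against 51.4, 58, 47.5 and 47.1 CPM in E14 KO. At P25 Stat2 was at 52.7, 84.8, 58.3 and 44.6 CPM in WT and 52.1, 44.4, 49.3 and 41.8 CPM in KO. Its stages overlapped in both genotypes (WT, log2 fold change of 0.12 with SE 0.20 and adjusted p = 0.612; KO, log2 fold change of -0.12 with SE 0.20 and adjusted p = 0.609). Irf9 and Stat2 were both highest at E14 in WT replicate 2, the library that was lowest or tied for lowest for 16 other members.

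Isg15, a ubiquitin-like protein that is attached to other proteins during the response, rose in both genotypes. It was at 0.458, 0.854, 0.0568 and 0.263 CPM in the E14 WT libraries and 0.758, 0.42, 0.291 and 0.381 CPM in E14 KO. At P25 it stood at 2.62, 19, 1.76 and 5.02 CPM in WT and 1.48, 2.84, 3.1 and 2.26 CPM in KO. P25 WT replicate 2 was far above the rest, WT replicate 4 was next, and the other P25 libraries were between 1.48 and 3.10 CPM. The fit gave a log2 fold change of 4.13 with SE 0.69 and adjusted p = 3.88e-05 in WT and a log2 fold change of 2.39 with SE 0.68 and adjusted p = 0.00508 in KO. Usp18, which removes Isg15 from proteins and also blocks the receptor, was at 1.05, 0.183, 0.284 and 0.92 CPM in the E14 WT libraries and 0.695, 0.653, 0.582 and 0.476 CPM in E14 KO, then 1.25, 22.6, 0.861 and 3.01 CPM in P25 WT and 1.61, 1.98, 2.19 and 1.71 CPM in P25 KO. Its WT stages overlapped, because P25 WT replicate 3 at 0.861 CPM lay under 2 of the E14 WT values, while its KO stages did not. It was called in WT (log2 fold change of 3.44 with SE 0.79 and adjusted p = 9.38e-04) and not in KO (log2 fold change of 1.63 with SE 0.80 and adjusted p = 0.0865). Leaving out P25 WT replicate 2 gave WT values of 3.01 (adjusted p = 1.23e-04) for Isg15 and 1.48 (adjusted p = 0.0208) for Usp18. Trim25, a ubiquitin and Isg15 ligase that activates the RNA sensor RIG-I, changed less. It was at 14.3, 18, 12.8 and 12 CPM in E14 WT against 8.02, 17.6, 12.6 and 11 CPM in E14 KO. At P25 Trim25 was at 19.8, 31.3, 20.2 and 18.8 CPM in WT and 21.4, 20.9, 20.8 and 17 CPM in KO (log2 fold change of 0.65 with SE 0.23 and adjusted p = 0.0184 in WT; log2 fold change of 0.70 with SE 0.23 and adjusted p = 0.0127 in KO). Its KO stages overlapped, and its KO call was lost without E14 KO replicate 1.

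The IFIT proteins bind viral RNA ends and block translation. Ifit1 was nearly absent at E14, with 2 counts over the 4 WT libraries and 0 over the 4 KO libraries. At P25 it was at 3.38, 28, 1.22 and 5.37 CPM in WT and 4.49, 4.26, 3.92 and 5.12 CPM in KO. Each P25 library had more Ifit1 than any E14 library. The ratio of scaled counts in WT was 354, with an exact 95% counting interval of 97.8 to 2929, and in KO the level was at least 112-fold higher at P25, set against 3 counts over the E14 group. P25 WT replicate 2 held 665 of the 922 P25 WT counts of Ifit1. Without it the WT ratio was 129, with a counting interval of 35.2 to 1067. Ifit2 was at 0.963, 0.183, 0.966 and 1.66 CPM in the E14 WT libraries and 1.26, 1.59, 2.33 and 0.666 CPM in E14 KO. It was at 11.2, 17.7, 9.87 and 7.99 CPM in P25 WT and 14.2, 14, 13 and 14.7 CPM in P25 KO (log2 fold change of 3.59 with SE 0.41 and adjusted p = 3.52e-07 in WT; log2 fold change of 3.26 with SE 0.40 and adjusted p = 8.51e-07 in KO). Ifit2 showed a smaller excess in P25 WT replicate 2 than its relatives, and the 4 KO libraries lay above the other 3 WT libraries. Ifit3 was at 1.1, 0, 0.398 and 1.1 CPM in E14 WT against 1.07, 0.98, 1.16 and 1.43 CPM in E14 KO. At P25 Ifit3 was at 4.43, 50.6, 4.48 and 6.99 CPM in WT and 6.26, 7.02, 7.66 and 6.82 CPM in KO (log2 fold change of 4.60 with SE 0.76 and adjusted p = 3.17e-05 in WT; log2 fold change of 2.57 with SE 0.70 and adjusted p = 0.00375 in KO). Left without P25 WT replicate 2, Ifit3 in WT was at a log2 fold change of 3.01 (adjusted p = 5.87e-05). Ifit3 shares 61.8% of its 31-base transcript words with Ifit3b, so the split of reads between them is uncertain; Ifit3b was also highest at P25 in WT replicate 2, at 10.1 CPM against 1.01 to 3.13 CPM in the other 7.

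The OAS enzymes make a messenger that activates RNA-degrading RNase L, and Oasl1 and Oasl2 are OAS-like relatives of them. Oasl2 was the most abundant of the 4 and rose in both genotypes. It was at 5.13, 3.78, 4.55 and 4.42 CPM in E14 WT against 4.42, 6.25, 4.89 and 2.76 CPM in E14 KO. At P25 Oasl2 was at 35.3, 81.1, 31.4 and 33.7 CPM in WT and 42.8, 36.8, 38 and 35.7 CPM in KO (log2 fold change of 3.34 with SE 0.30 and adjusted p = 9.65e-09 in WT; log2 fold change of 3.06 with SE 0.30 and adjusted p = 2.91e-08 in KO). Oas1a ranged over 0.171 to 1.24 CPM in WT and 0.233 to 1.12 CPM in KO at E14. At P25 Oas1a was at 2.21, 5.27, 2.12 and 2.51 CPM in WT and 2.35, 2.46, 1.09 and 1.31 CPM in KO (log2 fold change of 1.93 with SE 0.52 and adjusted p = 0.00321 in WT; log2 fold change of 1.83 with SE 0.55 and adjusted p = 0.0070 in KO). It shares 68.8% of its transcript words with other genes, nearly all with Oas1g, and its values are uncertain for that reason. Oasl1 ranged over 0.909 to 2.02 CPM in WT and 0.695 to 2.24 CPM in KO at E14, and at P25 was at 2.45, 7.2, 2.22 and 2.86 CPM in WT and 2.51, 2.02, 2.83 and 2.42 CPM in KO. It was called in WT (log2 fold change of 1.44 with SE 0.42 and adjusted p = 0.00564) and not in KO (log2 fold change of 0.69 with SE 0.42 and adjusted p = 0.157), where its stages overlapped. The WT value of Oasl1 fell to 0.95 (adjusted p = 0.0437) with P25 WT replicate 2 left out. Oas2 stayed low, at 0 to 0.321 CPM in WT and 0 to 0.569 CPM in KO at E14 and 1.09, 1.47, 0.323 and 0.579 CPM in P25 WT and 0.535, 0.862, 0.684 and 0.952 CPM in P25 KO. Its call was near the threshold in KO (log2 fold change of 1.67 with SE 0.71 and adjusted p = 0.0495; WT, log2 fold change of 2.17 with SE 0.72 and adjusted p = 0.0131), and leaving out any of 13 of the 16 libraries ended the KO call, with adjusted p up to 0.128. Leaving out single E14 KO libraries moved 2 of the KO values: Oas1a to 2.69 without replicate 2 and Oas2 to 2.42 without replicate 1.

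Among the sensors and effectors, Ifih1, which encodes the double-stranded RNA sensor MDA5, showed a large rise from near 0. It ranged over 0 to 0.227 CPM in WT and 0 to 0.19 CPM in KO at E14. At P25 Ifih1 was at 3.02, 10.1, 3.34 and 2.55 CPM in WT and 3.33, 3.19, 2.87 and 3.49 CPM in KO (log2 fold change of 5.16 with SE 0.60 and adjusted p = 3.78e-07 in WT; log2 fold change of 5.03 with SE 0.63 and adjusted p = 1.16e-06 in KO). Eif2ak2, the kinase PKR that stops translation on sensing such RNA, was at 1.42, 0.549, 1.71 and 2.41 CPM in E14 WT against 1.45, 2.29, 1.63 and 1.14 CPM in E14 KO. At P25 Eif2ak2 was at 10.4, 15.3, 8.11 and 6.6 CPM in WT and 10.9, 9.18, 7.48 and 13.1 CPM in KO. Its folds were alike in size (log2 fold change of 2.71 with SE 0.36 and adjusted p = 2.24e-06 in WT; log2 fold change of 2.63 with SE 0.36 and adjusted p = 3.13e-06 in KO). Samd9l, a translation-inhibiting effector, ranged over 0 to 0.307 CPM in WT and 0.0476 to 0.884 CPM in KO at E14. At P25 Samd9l was at 3.22, 7.16, 3.44 and 2.55 CPM in WT and 4.73, 4.87, 2.83 and 4.56 CPM in KO (log2 fold change of 4.59 with SE 0.66 and adjusted p = 6.02e-06 in WT; log2 fold change of 3.57 with SE 0.60 and adjusted p = 3.84e-05 in KO). Single E14 libraries moved these values, Samd9l to 5.22 in WT without replicate 4 and to 4.37 in KO without replicate 1. Zbp1, a sensor of left-handed nucleic acids, was listed at 0 in 5 of 8 E14 libraries, and at P25 was at 1.09, 5.27, 0.825 and 1.08 CPM in WT and 0.0823, 0.431, 0.912 and 0.159 CPM in KO. It was called in WT (log2 fold change of 4.31 with SE 1.02 and adjusted p = 0.00116) and not in KO (log2 fold change of 1.64 with SE 1.10 and adjusted p = 0.205). Every E14 WT count of Zbp1 came from replicate 4, so no WT fold can be given without that library. Ddx60, a helicase that assists RNA sensing, was at 0.644, 1.64, 0.646 and 0.695 CPM in P25 WT and 1.07, 0.775, 0.639 and 0.873 CPM in P25 KO. In WT it gave a log2 fold change of 2.09 with SE 0.66 and adjusted p = 0.0101, or 3.13 without E14 WT replicate 1, and in KO 2 counts at E14 gave a P25 to E14 ratio of 31.9, counting interval 8.54 to 268. With P25 WT replicate 2 left out the WT values were 4.54 (adjusted p = 8.20e-07) for Ifih1, 3.32 (adjusted p = 0.0096) for Zbp1 and 1.69 (adjusted p = 0.0474) for Ddx60.

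Rsad2 encodes viperin, an enzyme that makes a chain-terminating nucleotide, and its genomic neighbour Cmpk2 encodes a nucleotide kinase. Rsad2 was called in both genotypes and Cmpk2 in neither. Rsad2 ranged over 0 to 0.183 CPM in WT and 0 to 0.42 CPM in KO at E14. At P25 Rsad2 was at 2.09, 12.1, 1.54 and 1.47 CPM in WT and 2.1, 3.14, 2.83 and 2.42 CPM in KO (log2 fold change of 5.14 with SE 0.83 and adjusted p = 2.57e-05 in WT; log2 fold change of 3.59 with SE 0.77 and adjusted p = 4.79e-04 in KO). Without P25 WT replicate 2 the WT value was 3.86 (adjusted p = 5.71e-05), and without E14 KO replicate 2 the KO value was 4.26. Cmpk2 was already at 21.1, 12.9, 24.1 and 23.7 CPM in the E14 WT libraries and 19.1, 22.1, 20.7 and 23.7 CPM in E14 KO. It stood at 14.6, 35.1, 14.4 and 20.5 CPM in P25 WT and 15.3, 18.1, 13 and 19.3 CPM in P25 KO, with the stages overlapping in both genotypes (log2 fold change of 0.046 with SE 0.26 and adjusted p = 0.892 in WT; log2 fold change of -0.38 with SE 0.26 and adjusted p = 0.213 in KO). Both genes were highest at P25 in WT replicate 2.

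The GTPases Gbp2, Gbp3 and Gbp7, guanylate-binding proteins that attack pathogen-holding vacuoles, rose in both genotypes. Gbp2 ranged over 0.0876 to 0.183 CPM in WT and 0 to 0.466 CPM in KO at E14. At P25 Gbp2 was at 5.63, 37.5, 6.13 and 8.19 CPM in WT and 4.98, 4.91, 7.25 and 6.74 CPM in KO (log2 fold change of 6.89 with SE 0.73 and adjusted p = 1.02e-07 in WT; log2 fold change of 4.54 with SE 0.65 and adjusted p = 6.20e-06 in KO). Gbp3 ranged over 0 to 0.263 CPM in WT and 0.19 to 0.569 CPM in KO at E14. At P25 Gbp3 was at 2.9, 11.1, 3.19 and 3.48 CPM in WT and 2.43, 4.09, 3.74 and 4.6 CPM in KO (log2 fold change of 6.01 with SE 0.72 and adjusted p = 6.13e-07 in WT; log2 fold change of 3.56 with SE 0.60 and adjusted p = 4.00e-05 in KO). All E14 WT counts of Gbp3 came from replicate 4, so no fold can be given without that library. Gbp7 ranged over 0 to 0.455 CPM in WT and 0.0476 to 0.606 CPM in KO at E14. At P25 Gbp7 was at 4.19, 9.65, 3.59 and 2.97 CPM in WT and 5.8, 5.86, 5.16 and 5.83 CPM in KO (log2 fold change of 4.18 with SE 0.57 and adjusted p = 3.02e-06 in WT; log2 fold change of 4.34 with SE 0.57 and adjusted p = 2.06e-06 in KO, or 5.20 without E14 KO replicate 2). Stages did not overlap for any of these 3 genes. Mx2, a gene of the dynamin-like GTPases, stayed low: 0 to 0.504 CPM in WT and 0 to 0.466 CPM in KO at E14, 0.402, 2.32, 0.753 and 1.27 CPM in P25 WT and 0.823, 1.55, 1.0 and 1.39 CPM in P25 KO (log2 fold change of 2.25 with SE 0.73 and adjusted p = 0.012 in WT; log2 fold change of 2.32 with SE 0.74 and adjusted p = 0.0113 in KO). Single E14 libraries moved Mx2, to 2.97 in WT without replicate 1 and to 2.97 in KO without replicate 2. Without P25 WT replicate 2 the WT values were 5.84 (adjusted p = 1.28e-08) for Gbp2 and 5.36 (adjusted p = 1.73e-06) for Gbp3.

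Parp9 and Dtx3l form a complex of an ADP-ribosyltransferase-like protein and a ubiquitin ligase, and lie next to each other and to Parp14, a mono-ADP-ribosyltransferase, in the genome. Dtx3l was at 2.25, 0.854, 1.36 and 1.01 CPM in E14 WT against 1.33, 2.99, 2.15 and 2.86 CPM in E14 KO. At P25 Dtx3l was at 9.3, 19.5, 11 and 5.75 CPM in WT and 8.27, 7.54, 8.76 and 10.1 CPM in KO (log2 fold change of 3.04 with SE 0.37 and adjusted p = 7.49e-07 in WT; log2 fold change of 1.88 with SE 0.35 and adjusted p = 1.24e-04 in KO). Parp9 was at 1.05, 0.427, 0.909 and 1.93 CPM in E14 WT against 1.45, 1.59, 3.26 and 1.81 CPM in E14 KO. At P25 Parp9 was at 4.43, 10.6, 3.09 and 3.63 CPM in WT and 3.25, 4.61, 3.33 and 3.61 CPM in KO. It was called in WT (log2 fold change of 2.29 with SE 0.43 and adjusted p = 1.34e-04) and not in KO (log2 fold change of 0.87 with SE 0.41 and adjusted p = 0.076), where E14 KO replicate 3 overlapped the P25 values. Parp9 and Dtx3l share 8.54% of the transcript words of Parp9. Parp14 ranged over 0.488 to 2.29 CPM in WT and 0.19 to 2.62 CPM in KO at E14. At P25 Parp14 was at 6.44, 11.8, 6.78 and 5.91 CPM in WT and 6.63, 8.14, 7.21 and 7.62 CPM in KO (log2 fold change of 2.38 with SE 0.46 and adjusted p = 1.80e-04 in WT; log2 fold change of 2.25 with SE 0.46 and adjusted p = 3.13e-04 in KO).

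Psmb8 and Psmb9, catalytic subunits that turn the proteasome into the immunoproteasome for antigen presentation, rose from near 0. Psmb8 ranged over 0.307 to 0.413 CPM in WT and 0.143 to 0.793 CPM in KO at E14. At P25 Psmb8 was at 6.68, 14.5, 6.03 and 12.2 CPM in WT and 6.63, 8.62, 8.67 and 6.39 CPM in KO (log2 fold change of 4.72 with SE 0.40 and adjusted p = 4.94e-09 in WT; log2 fold change of 3.97 with SE 0.39 and adjusted p = 3.60e-08 in KO). Psmb9 ranged over 0 to 0.275 CPM in WT and 0 to 0.116 CPM in KO at E14. At P25 Psmb9 was at 1.81, 3.54, 1.22 and 3.36 CPM in WT and 1.89, 1.81, 2.97 and 2.3 CPM in KO (log2 fold change of 3.99 with SE 0.56 and adjusted p = 4.28e-06 in WT; log2 fold change of 4.97 with SE 0.64 and adjusted p = 1.41e-06 in KO). In both, P25 WT replicates 2 and 4 were the highest of the 8 P25 libraries.

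Of the remaining members, Ifi27, a small membrane protein, had the highest level at P25. It was at 7.06, 5.91, 4.66 and 4.99 CPM in E14 WT against 9.86, 4.29, 3.38 and 6.05 CPM in E14 KO. At P25 Ifi27 was at 78.9, 119, 71.5 and 153 CPM in WT and 76, 93.4, 90.4 and 101 CPM in KO (log2 fold change of 4.22 with SE 0.31 and adjusted p = 5.53e-10 in WT; log2 fold change of 3.94 with SE 0.31 and adjusted p = 1.32e-09 in KO). Ifi35 was at 2.48, 3.35, 1.36 and 1.49 CPM in E14 WT against 3.22, 1.96, 1.57 and 2.33 CPM in E14 KO. At P25 Ifi35 was at 18.2, 27.4, 18 and 33 CPM in WT and 18.4, 18.9, 18.8 and 21 CPM in KO (log2 fold change of 3.48 with SE 0.30 and adjusted p = 5.62e-09 in WT; log2 fold change of 3.09 with SE 0.30 and adjusted p = 2.67e-08 in KO). P25 WT replicate 4 was the highest library for both. Xaf1, a pro-apoptotic protein, was at 0.55, 0.183, 0.512 and 0.526 CPM in E14 WT against 1.07, 0.746, 0.699 and 0.905 CPM in E14 KO. At P25 Xaf1 was at 6.56, 13.8, 6.49 and 12.1 CPM in WT and 7.7, 9.52, 8.07 and 9.01 CPM in KO (log2 fold change of 4.41 with SE 0.34 and adjusted p = 1.24e-09 in WT; log2 fold change of 3.32 with SE 0.32 and adjusted p = 2.71e-08 in KO). Bst2, the tetherin that holds budding virus at the cell surface, was at 5.55, 3.6, 4.21 and 4.42 CPM in E14 WT against 7.14, 5.27, 5.53 and 5.86 CPM in E14 KO. At P25 Bst2 was at 7.41, 14.2, 4.23 and 11.4 CPM in WT and 6.46, 7.32, 8.85 and 6.9 CPM in KO. Its stages overlapped in both genotypes, with a call in WT (log2 fold change of 1.06 with SE 0.29 and adjusted p = 0.00349) and none in KO (log2 fold change of 0.31 with SE 0.28 and adjusted p = 0.354). Rtp4, a receptor-transporting protein, ranged over 0.227 to 1.33 CPM in WT and 0.316 to 2.97 CPM in KO at E14. At P25 Rtp4 was at 4.23, 10.9, 3.09 and 3.63 CPM in WT and 2.92, 2.63, 3.74 and 3.49 CPM in KO. Its folds moved with single E14 libraries (log2 fold change of 3.01 with SE 0.61 and adjusted p = 2.87e-04 in WT, or 3.66 without E14 WT replicate 1; log2 fold change of 1.48 with SE 0.58 and adjusted p = 0.0345 in KO, or 2.55 without E14 KO replicate 3). Its call in KO ended when any of 5 KO libraries was left out, namely replicates 1, 2 and 4 of E14 and replicates 3 and 4 of P25 (log2 fold changes of 1.19 to 1.46, adjusted p from 0.0612 to 0.103) and with library totals alone (adjusted p = 0.0545). Ifi44 stayed under 2.0 CPM throughout, at 0.0568 to 0.0917 CPM in WT and 0 to 0.582 CPM in KO at E14, 0.322, 1.69, 0.359 and 0.657 CPM in P25 WT and 0.247, 0.862, 0.958 and 0.555 CPM in P25 KO. It was called in WT (log2 fold change of 3.21 with SE 0.83 and adjusted p = 0.00256; 2.52 (adjusted p = 0.0157) without P25 WT replicate 2) and not in KO (log2 fold change of 1.12 with SE 0.70 and adjusted p = 0.171).

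Compared per kilobase of the longest annotated transcript, the order of mean levels changed with stage. In E14 WT the leading members were Stat2 at 12.6 CPM per kilobase, Irf9 at 8.43, Cmpk2 at 6.25, Ifi27 at 5.79 and Bst2 at 5.61. The same 5 led in E14 KO, with Stat2 at 11.6, Irf9 at 8.14, Bst2 at 7.51, Cmpk2 at 6.53 and Ifi27 at 6.03. In P25 WT the leading members were Ifi27 at 108 CPM per kilobase, Ifi35 at 17.7, Oasl2 at 14.5, Stat2 at 13.7 and Bst2 at 11.8. In P25 KO they were Ifi27 at 92.4, Ifi35 at 14.2, Oasl2 at 12.3, Stat2 at 10.7 and Bst2 at 9.32. Ddx60 was among the lowest at P25, at 0.139 CPM per kilobase in WT and 0.128 in KO. Zbp1 was the lowest in KO, at 0.119, and stood at 0.621 in WT, or 0.300 without P25 WT replicate 2. So the members that were high before birth included the subunits of the ISRE-binding complex, and most other members were low then.

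The list was set beside the rest of the pathway. Of 21 interferon ligand genes, 19 had no count in any library, Ifng had 1 count, in P25 WT replicate 1, and Ifnl2 had 5 counts, in E14 KO replicate 3. Of the 18 receptor and signalling genes, 6 were called higher and 4 lower with stage in WT, and 7 higher and 4 lower in KO. Over all tested genes 29.7% were called higher and 29.8% lower in WT, and 30.6% and 29.2% in KO, so the counts of this list lie near the background. The median log2 fold change of the 18 was 0.19 in WT and -0.048 in KO. Of those that fell, Ifnar1, a receptor chain for type I interferon, went from 98.4 ± 9.14 to 61.7 ± 10.4 CPM in WT (SD, n = 4), with a log2 fold change of -0.67, and from 103 ± 6.22 to 64.1 ± 5.39 CPM in KO. Socs1, a brake on the kinases, fell from 14.3 ± 4.27 to 1.5 ± 0.622 CPM in WT and from 11.3 ± 1.75 to 1.76 ± 0.450 CPM in KO. Of 21 tested nucleic acid sensing genes, 10 were called higher and 1 lower in each genotype; Tbk1, the kinase that activates interferon-inducing factors, went from 15.5 ± 4.07 to 31.8 ± 1.75 CPM in WT, and Irf5 fell from 13.3 ± 3.19 to 5.28 ± 1.47 CPM. Of 61 other tested interferon-stimulated genes, 48 were called higher and 2 lower in WT, and 43 higher and 4 lower in KO. Among them B2m, the light chain of MHC class I, rose from 20.6 ± 6.34 to 115 ± 13.5 CPM in WT and from 24.7 ± 7.71 to 107 ± 18.7 CPM in KO, and Parp11 fell from 45.3 ± 4.05 to 21.1 ± 2.61 CPM in WT. Their median log2 fold changes were 2.68 in WT and 1.74 in KO.

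The summed level of 21 macrophage markers was 103 to 172 CPM in the E14 WT libraries and 84.1 to 103 CPM in E14 KO, and 317 to 371 CPM in P25 WT and 279 to 374 CPM in P25 KO. Of the 21, 15 were called higher in WT and 19 in KO, and 0 lower in either. Over all tested genes 29.7% were called higher and 29.8% lower in WT, and 30.6% and 29.2% in KO. Markers of Schwann cells summed to 565 to 843 CPM at E14 and 22285 to 45150 CPM at P25. Lymphocyte markers summed to 6.14 to 13 CPM over all libraries, mostly from Lck, Cd79a and Cd4, and Cd8b1 and Gzmb were at 0 in every library. The part of these cells in the rise of the members was not tested.

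**Figure D3:**
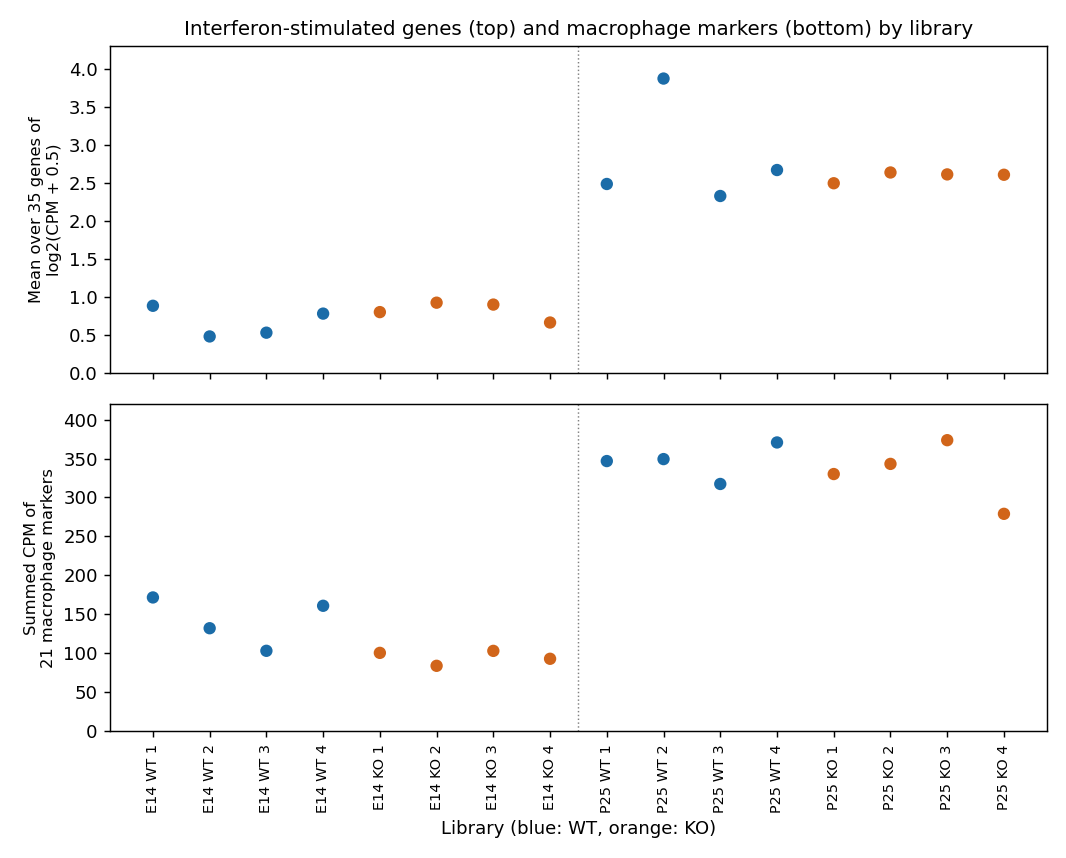
Mean of log2(CPM + 0.5) over the 35 interferon-stimulated genes (top) and summed CPM of 21 macrophage markers (bottom) in each library, WT in blue and KO in orange. Both are higher at P25 than at E14, while P25 WT replicate 2 stands apart in the top panel at 3.87 and lies within the range of the other P25 libraries in the bottom panel at 349 CPM.

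At P25 a single library, WT replicate 2, stood above the other 7 in nearly all of these genes. It was the highest of the 8 P25 libraries for 33 of the 35 members, where it was the highest for 12% of the 14421 tested genes with at least 0.5 CPM at P25. Its ratio to the mean of the other 3 WT libraries had a median of 2.42 over the members, from 1.18 for Ifi27 to 13.3 for Usp18. Ifit3 stood at 9.55 times that mean, Ifit1 at 8.43, Rsad2 at 7.11, Isg15 at 6.05, Gbp2 at 5.63 and Zbp1 at 5.28. The ratio was over 2 for 23 members (65.7%), against 0.853% of the 14421 genes. Of the 61 other tested interferon-stimulated genes, 31 exceeded 2 (50.8%), and 45 (73.8%) were highest in that library among the P25 libraries. Oas3, an OAS enzyme, was at 3.20 CPM there and at 0.0412 to 0.241 CPM in the other 7 P25 libraries, and Ddx58, which encodes RIG-I, was at 33.5 against 13.1 to 14.7 CPM. The 13 members with an ISRE core in the window had a median log2 ratio of 1.76 (0.71 to 3.26), and the 14 with a window and no core a median of 0.98 (0.25 to 1.92). These ranges overlap and describe 1 library.

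**Figure D4:**
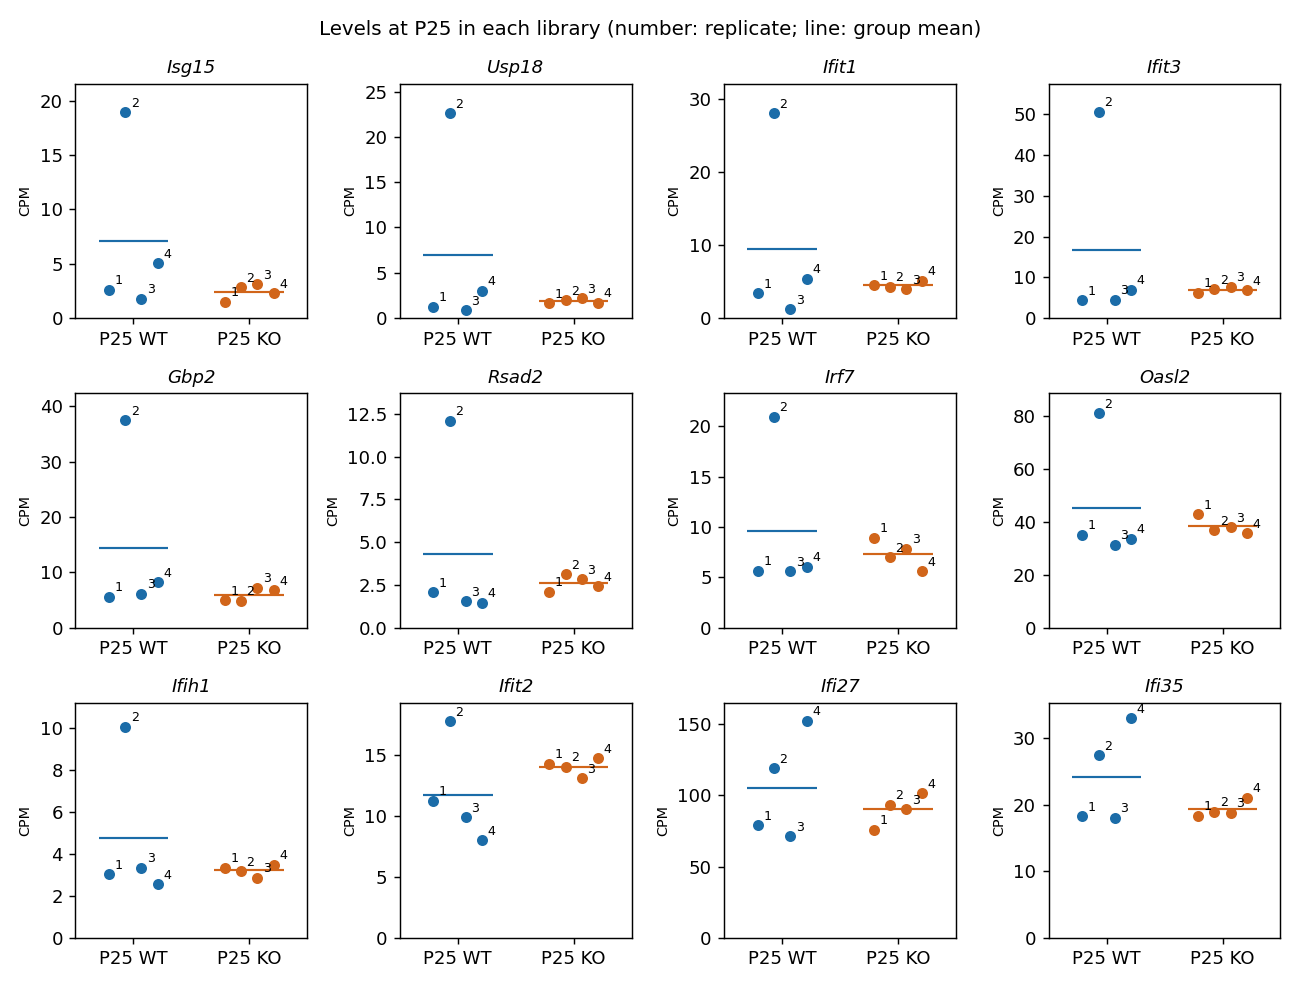
CPM of 12 members in each of the 8 P25 libraries (points, labelled by replicate number; lines are group means), WT in blue and KO in orange, each axis starting at 0. The genes were chosen after their values were seen: in 10 panels WT replicate 2 is the highest point, and in Ifi27 and Ifi35 WT replicate 4 is.

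No interferon ligand had a count in P25 WT replicate 2. Its macrophage marker sum was 349 CPM, within the 279 to 374 CPM of the other 7 P25 libraries, and its lymphocyte marker sum was 9.39 CPM, within 8.72 to 13. The sum of 9 plasmacytoid dendritic cell markers was 397 CPM, within 369 to 530, of which Pacsin1, a gene that neurons also express, made up 367 CPM. Siglech, 1 of the 9, lay near the floor there, at 0.0421 CPM, where 1 CPM is 23.7 counts. In the other 7 libraries Siglech was at 0.143 to 0.811 CPM, and no reading is drawn from it. The 9 markers also include Bst2, itself one of the members, at 14.2 CPM in that library against at most 11.4 CPM in the other 7. Of the 10 cell-type lists, 2 lay outside the range of the other 7 libraries: satellite glia at 5443 CPM, against 5936 to 8407, and endothelial cells at 175 CPM, against 176 to 298. The receptor and signalling genes summed to 941 CPM there, against 733 to 884, and the nucleic acid sensing genes to 465 CPM, against 372 to 409. The part of the satellite glia and endothelial cells in the level of the members there was not tested. The correlation of that library with the mean of the other P25 libraries was 0.993, within the range of 0.983 to 0.996 of the others. Its 3772 tested genes of highest GC content lay at a median of -0.15 log2 units from the stage mean, outside the -0.088 to 0.12 of the other 7. The part of GC content in the members' level was not tested. P25 WT replicate 4 differed in another way. In it the 580 tested genes with a longest transcript under 1000 bases stood at a median of 1.55 times the mean of WT replicates 1 and 3, and the 8583 genes of 3000 bases or more at 0.839 times. Ifi27 and Bst2, whose longest transcripts have 977 and 792 bases, were at 153 and 11.4 CPM there, against 78.9 and 71.5 CPM and 7.41 and 4.23 CPM in replicates 1 and 3. Members with longer transcripts were high there too: Usp18 (1771 bases) stood at 2.86 times the mean of those replicates, Ifit1 (2656 bases) at 2.33 and Psmb9 (2884 bases) at 2.22. Others were lower, such as Dtx3l (5309 bases) at 0.566 times, and the median over the 35 members was 1.13 times. The part of transcript length in these values was not tested.

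Between KO and WT at P25, 0 of 35 members were called by edgeR, where 0.0463% of all tested genes were, 4 members had an unadjusted p under 0.05 (1.87% of all tested genes), and every adjusted p was 1. DESeq2 also called 0, where it called 18 of all genes, with 2 members at an unadjusted p under 0.05 and 6 without an adjusted p. The DESeq2 share of all genes under that p was not computed. The log2 fold change was negative for 30 members and positive for 5, where 46.4% of all tested genes were positive. The median was -0.36 beside -0.016 over all tested genes. Members move together within a library, so their signs are not separate observations. The 4 with the lowest p were Zbp1 with a log2 fold change of -2.38 with SE 0.84 and adjusted p = 1, Isg15 with a log2 fold change of -1.55 with SE 0.58 and adjusted p = 1, Usp18 with a log2 fold change of -1.88 with SE 0.71 and adjusted p = 1 and Gbp2 with a log2 fold change of -1.26 with SE 0.48 and adjusted p = 1. All 4 were highest in WT replicate 2. Irf9 was the 1 member whose 4 KO libraries all lay below the 4 WT libraries, as for 1.28% of all tested genes (log2 fold change of -0.46 with SE 0.23 and adjusted p = 1), and 0 members had all KO libraries above, where 2.05% of all tested genes did.

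Without P25 WT replicate 2 the median log2 fold change of KO against WT was 0.075, beside -0.019 over all tested genes. Of the members, 20 were positive, 15 negative and 0 at an unadjusted p under 0.05. By edgeR 0 members were called, where 3 of 15258 tested genes were. Usp18 moved from -1.88 to 0.13 (SE 0.49), Ifit3 from -1.26 to 0.39 (SE 0.45), Ifit1 from -1.09 to 0.42 (SE 0.43) and Isg15 from -1.55 to -0.37 (SE 0.48). Zbp1 remained the most negative, at -1.34 (SE 0.85). Against the other 3 WT libraries the 4 KO libraries were all higher for Ifit2, Oasl2, Rsad2 and Gbp7 (3.37% of all tested genes) and all lower for Irf9 (2.28%), a count made after the library was seen to stand apart. The SD of the members' mean log2 level was 0.063 over the 4 KO libraries and 0.70 over the 4 WT libraries, or 0.17 over the other 3 WT libraries.

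**Figure D5:**
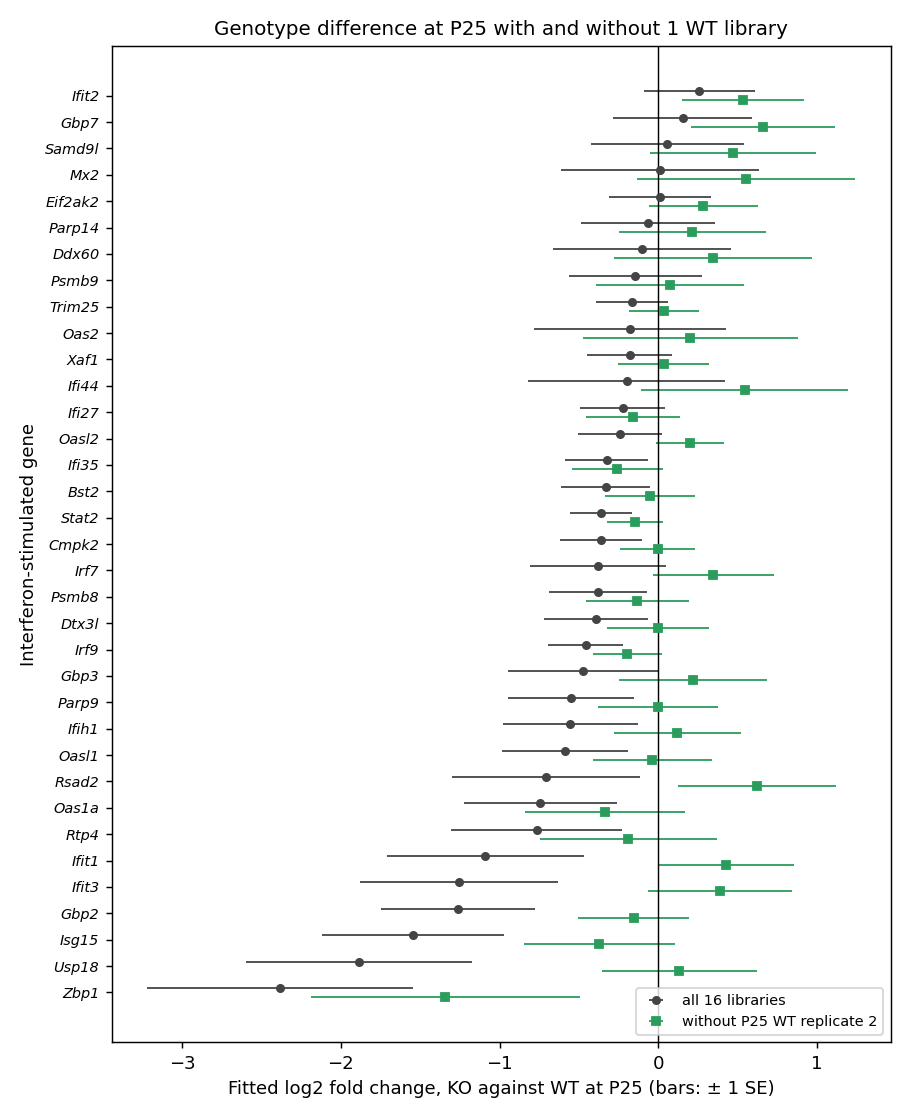
Fitted log2 fold change of KO against WT at P25 for each member (rows), with bars of 1 SE, from all 16 libraries (grey circles) and without P25 WT replicate 2 (green squares). With all libraries 30 of 35 points lie below 0, and without that library 15 do, with a median of 0.075.

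At E14, 0 of 35 members were called between KO and WT by edgeR, where 0.0199% of all tested genes were, 3 members had an unadjusted p under 0.05 (4.86% of all tested genes), and the lowest adjusted p was 0.942. DESeq2 called 0 as well, where it called 5 of all genes, with 6 members at an unadjusted p under 0.05 and 1 without an adjusted p. The DESeq2 share of all genes under that p was not computed, so the 6 have no background. The log2 fold change was positive for 24 members, where 43.3% of all tested genes were positive, and the median was 0.16, beside -0.042 over all tested genes. Without E14 WT replicate 2, the library that stands apart, the members' median was 0.11 and without E14 WT replicate 1 it was 0.39. Xaf1 was the 1 member with all KO libraries above all WT libraries, as for 0.523% of all tested genes: 1.07, 0.746, 0.699 and 0.905 CPM against 0.55, 0.183, 0.512 and 0.526 CPM (log2 fold change of 0.91 with SE 0.37 and adjusted p = 0.942). The other 2 with an unadjusted p under 0.05 were Gbp3 (log2 fold change of 1.98 with SE 0.91 and adjusted p = 0.942) and Ddx60, whose KO group held 2 counts. The macrophage marker sum at that stage ranged from 84.1 to 103 CPM in KO and from 103 to 172 CPM in WT, and its part was not tested.

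The interaction test asked whether the change with stage differed between the genotypes. Of the 35 members, 0 were called by edgeR, as were 0% of all tested genes, 6 had an unadjusted p under 0.05 (4.28% of all tested genes) and the lowest adjusted p was 0.993. With DESeq2 7 members had an unadjusted p under 0.05, and the share of all genes under it was not computed. DESeq2 called 0 members and 8 of all genes. So the 6 members called with stage in WT and not in KO (Usp18, Oasl1, Zbp1, Parp9, Bst2 and Ifi44) are not shown to differ between genotypes. The median interaction was -0.51 with all libraries and -0.23 without P25 WT replicate 2. The WT and KO stage comparisons share no library.

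Genes outside the list that moved with it were found by Pearson correlation of log2 level with the members' mean level over the 8 P25 libraries, among 14386 genes. The 12 highest were Igtp, Oas3, Ddx58, Cdc42se2, Irgm2, Gm8104, Mlkl, Paip1, Tor3a, Nlrc5, Rap2a and Nipsnap2, with r from 0.926 to 0.975. Igtp and Irgm2, immunity-related GTPases, were at 31.6 and 25.1 CPM in P25 WT replicate 2, against 8.96 to 12.4 and 7.02 to 9.27 CPM in the other 7. Nlrc5, an activator of MHC class I genes, was at 9.86 against 1.43 to 2.46 CPM. Without that library the r of Oas3, Ddx58, Irgm2, Mlkl, Tor3a and Nlrc5 lay between -0.14 and 0.16, so the likeness of these 6 rested on it. The other 6 kept a higher r over the remaining 7 libraries, 0.57 for Igtp, 0.601 for Paip1, 0.683 for Gm8104, 0.718 for Rap2a, 0.722 for Cdc42se2 and 0.850 for Nipsnap2. Members that kept a high r with the mean of the other members over the remaining 7 libraries were Usp18 at 0.912, Ifit1 at 0.847, Bst2 at 0.841 and Ifit3 at 0.831, while Stat2 was at -0.902. The points share depth and library preparation, and no test is given.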

How the data were processed

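The authors deposited estimated counts per gene, written as whole numbers, for each of 16 libraries. Per the submitters' processing notes the tools were fastp 0.20.0, kallisto 0.46 and DESeq2 1.32.0 and the build GRCm39. The strand setting, the annotation and the role of each tool were not given in the sources used here. Such estimates split reads between near-identical genes by a model, which makes those genes less certain. Groups were taken from the sample titles. Of 25719 identifiers 25614 had a symbol. Levels (CPM), the low-count filter filterByExpr, TMM scaling and 1 fit of 4 group means to all 16 libraries were computed in R 4.3.3 with edgeR 4.0.16 (quasi-likelihood F test, Benjamini-Hochberg adjustment over 15109 genes); the SE of a log2 fold change was derived from the F statistic. DESeq2 1.42.0 was run as an alternative. The counting intervals and the floor of 3 counts hold no other error than that of counting. Library totals were 15532373 to 29562379 counts, so 1 CPM is about 15.8 to 27.9 counts. The fit was tested on simulated data.

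Transcript lengths, GC content and shared 31-base words came from a GENCODE annotation of GRCm38 and promoters from RefSeq on GRCm38.p6, not the build named in the notes, so no position was converted. Length is that of the longest transcript; this definition replaced the median length after the data had been seen. The members and all lists were chosen with earlier results of these data known. Every member is described. From each pathway list at most 4 called genes per direction, of highest mean CPM, could be named, and outside the lists the 12 genes most alike at P25. Ifit3b and the markers named beside P25 WT replicate 2 were picked after their values were seen. Alternatives were RLE scaling, library totals alone, DESeq2, other low-count filters, fits to the compared libraries, a replicate block, summed E14 ganglia of the same number, another pseudocount and leaving out each library.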

Additional observations from a re-analysis of the deposited data

Results flagged for a closer look

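Of 140 combinations of a member and a group of 4 libraries, 26 held 1 library whose gap to the nearest of the others took more of the group's range than Dixon's 95% critical value for 4 samples allows. Chance gives about 1 in 20, or 7 of 140, for normally distributed values, which CPM near 0 are not. Where all other libraries of a group are at 0, any count is flagged, as for Zbp1, Gbp3 and Ddx60 at E14. The combinations are also not independent, since members move together within a library. In 17 of the 26 the library was P25 WT replicate 2, as the highest of the 4. Irf7 stood at 20.9 CPM, Irf9 at 47.5, Usp18 at 22.6, Trim25 at 31.3, Ifit1 at 28, Ifit3 at 50.6 and Oas1a at 5.27 CPM. In the same library Oasl1 was at 7.20 CPM, Oasl2 at 81.1, Ifih1 at 10.1, Zbp1 at 5.27 and Ddx60 at 1.64 CPM. Rsad2 was at 12.1 CPM there, Gbp2 at 37.5, Gbp3 at 11.1, Parp14 at 11.8 and Rtp4 at 10.9 CPM.

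The other 9 were spread over 6 libraries. At E14, WT replicate 4 was high for Zbp1 at 0.350 CPM and Gbp3 at 0.263 CPM, with the other 3 libraries of the group at 0. WT replicate 2 was low for Xaf1 at 0.183 CPM, against 0.512 to 0.550 CPM. KO replicate 2 was low for Irf9 at 28.5 CPM, against 32.2 to 32.7 CPM, and high for Oas1a at 1.12 CPM, against 0.233 to 0.316 CPM. KO replicate 4 was high for Ddx60 at 0.0952 CPM, with the others at 0. At P25, KO replicate 4 was low for Trim25 at 17 CPM, against 20.8 to 21.4 CPM. KO replicate 3 was low for Samd9l at 2.83 CPM, against 4.56 to 4.87 CPM, and for Gbp7 at 5.16 CPM, against 5.80 to 5.86 CPM.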

How the results depend on the processing

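Counts of called members kept their side within 1.5 times under every alternative run: 24 to 32 for the stage comparisons and 0 for both genotype comparisons and the interaction. Of 1382 alternative values for the 58 member fold changes called with stage, 27 lost the call and 0 reversed; those of Oas2 and Rtp4 in KO were lost most often, in 13 and 5 of 16 fits without 1 library. With the replicate block the stage calls of Mx2 in WT (adjusted p = 0.0628) and Rtp4 in KO (adjusted p = 0.0540) were lost. The median of the members for KO against WT at P25 was -0.36 and turned to 0.075 without P25 WT replicate 2; leaving out each library in turn gave -0.51 to 0.075. The same ranges were 0.11 to 0.39 for KO against WT at E14, 2.71 to 3.63 for stage in WT, 2.34 to 2.69 for stage in KO and -0.79 to -0.23 for the interaction, with 29 to 32 members called in WT and 24 to 28 in KO. The KO stage median of 2.40 became 2.51 in a fit to the compared libraries, 2.54 with same-numbered E14 ganglia summed, 2.59 with a stricter low-count filter and 2.61 with the replicate block; the cause was not tested. With log2(CPM + 0.1) the members' mean deviated from the stage mean by 0.33 in E14 KO replicate 2 and -0.53 in E14 WT replicate 2, against 0.18 and -0.26 with 0.5, since members near 0 weigh more. With 1 mismatch allowed, 24 of the 27 members with a promoter window matched the ISRE letters, against 13 without. At that setting 38.9% of all genes also matched. Over all tested genes DESeq2 called 5 genes at E14 and 18 at P25 between genotypes, and edgeR 3 and 7.

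Correlations of same-numbered WT and KO deviations ran from -0.47 to 0.057 at E14 and from -0.16 to 0.26 at P25. Differently numbered ones ran from -0.50 to 0.62 at E14 and from -0.46 to 0.51 at P25. These are the replicate numbers of the titles, and the numbers in the library names, which differ for some libraries, were not used. So few correlations cannot settle whether samples are paired. With the replicate block 31 members were called with stage in WT, 26 in KO and 0 between genotypes, and the P25 genotype median was -0.22. The stage values of genes with few E14 counts, such as Ifit1, Gbp3, Zbp1 and Ddx60, are limited by depth.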
